A study of Sus scrofa with 10 samples.

Results

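The mitogen-activated protein (MAP) kinase cascade genes were examined in alveolar macrophages, which engulf particles and microbes in the lung airspaces, from 5 Hampshire pigs. A gene was included when its symbol in the array's probe annotation begins with MAPK, MAP2K, MAP3K or MAP4K and a digit, or with MAPKAPK, and its brightest probe set on average across the 10 arrays stood for it. This gave 38 of 13755 named genes. They were 4 MAP4K genes, 13 MAP3K genes, 5 MAP2K genes, 10 MAPK genes, 3 MAPKAPK genes and 3 genes that match the symbols but name scaffold or other proteins (MAPK8IP2, MAPK8IP3 and MAPK1IP1L). MAPK9 and MAP2K2 had no named probe set and were not analysed here.

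MAP kinase cascades pass a signal from the cell surface to the nucleus through successive phosphorylation. A MAP4K or a small GTPase activates a MAP3K, which activates a MAP2K, which activates a MAP kinase of the ERK, JNK or p38 branch, and the MAP kinases in turn activate kinases such as the MAPKAPK enzymes. In macrophages these branches act downstream of Toll-like receptors, growth factor receptors and integrins and control the transcription and mRNA stability of cytokines. Activation is by phosphorylation, which an expression array does not measure.

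The 2 groups were non-adherent and adherent cells of the same 5 animals, with 5 arrays each, 1 per animal. Frozen cells of both groups had been cultured overnight with recombinant human CSF-1, the macrophage growth factor. The non-adherent cells were those floating the next day, taken by cytometry for high size and granularity, whereas for adherent cells no sort is given. The labels describe every sample as untreated at 0 h, yet the protocol of the adherent samples also mentions lipopolysaccharide, an activator of Toll-like receptor 4 and of these cascades. The adherent arrays were made for an earlier series, so attachment, sort and array series cannot be told apart.

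Values are log2 probe set intensities, differences are non-adherent minus adherent on the log2 scale, and errors are limma standard errors (SE) except where SD is written. A gene passed at an adjusted p of 0.05 over all 13755 genes. Array medians lay between 4.97 and 5.09. The adherent array of animal 1 stood apart, with a mean correlation of 0.952 with the other adherent arrays, against 0.978 to 0.979 for the others of its group and 0.984 to 0.988 among non-adherent arrays. The bacterial BioB controls added to every hybridisation were 3.08 to 3.26 higher on the non-adherent arrays. All 9 control probe sets of this kind were higher there, by at least 0.22, and 7 did so without overlap of the groups. The BioC controls were 0.65 and 0.90 higher, which exceeds the largest cascade difference in size (0.64). Of 8 measured dendritic cell markers 7 were higher in non-adherent cells and 0 lower, and their mean log2 level was 7.4 to 8.92 in non-adherent and 6.07 to 6.43 in adherent arrays. Of 9 alveolar macrophage markers 2 were higher and 2 lower, with mean levels of 9.01 to 9.50 in non-adherent and 8.50 to 9.66 in adherent arrays. The neutrophil, T and NK cell and B cell markers had 0 genes past the threshold in either direction (6, 8 and 4 measured), while epithelial markers had 1 of 8 lower and fibroblast markers 1 of 5 higher. What part these cells or the array series have in the differences below was not tested, and in such bulk samples fewer cells of a type and less RNA per cell cannot be told apart.

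Non-adherent cells had lower levels of 8 of the 38 cascade genes and higher levels of 0. These were MAP3K11 and MAP3K4 among the MAP3Ks, MAP2K3, the MAP kinases MAPK3 and MAPK15, the p38 substrate kinase MAPKAPK3, and the JNK scaffolds MAPK8IP2 and MAPK8IP3. The share lower was 21.1%, against 9.78% of all genes, and the share higher was 0%, against 6.72% of all genes. Among genes above the median level of all probe sets, where 36 of the 38 lay, 13.3% of genes passed lower and 7.79% higher. Blocking on animal, 4 cascade genes passed lower, all of them among the 8, and 2 passed higher (MAP4K3 and MAPK7), against 10.4% and 7.85% of all genes. The largest difference was 0.64 in size. Of the 38 genes 4 (10.5%) differed by at least 0.5, against 16.0% of all genes. The median difference was -0.13, against 0.01 over all genes, and -0.05 among genes above the median level. In 12 of the 38 genes (31.6%) the non-adherent value was the lower in 5 of 5 animals, as in 16.5% of all genes, and in 4 (10.5%) it was the higher in all 5, as in 15.3% of all genes.

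**Figure D1:**
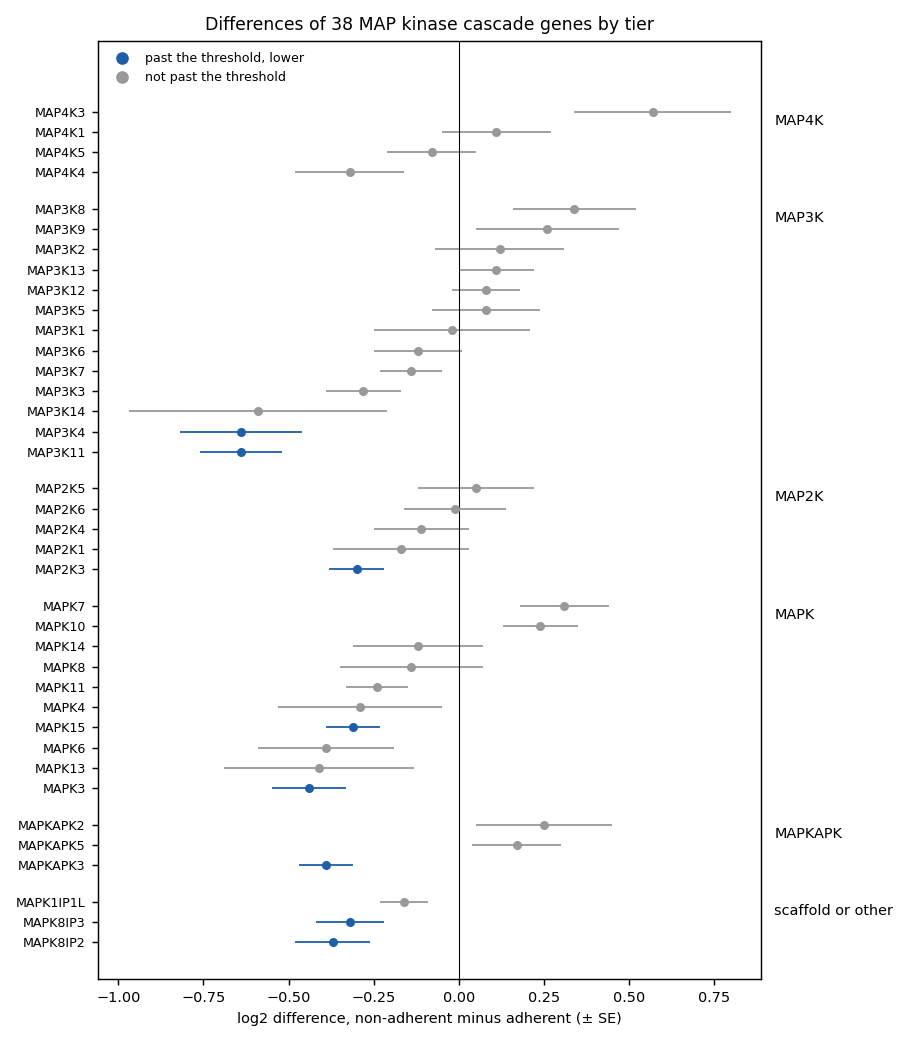
Log2 difference, non-adherent minus adherent, with its standard error, for the 38 MAP kinase cascade genes grouped by tier (n = 5 arrays per group). The 8 genes past the threshold, in blue, all lie below 0 and appear in every tier other than MAP4K, and the points span -0.64 to 0.57.

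By tier, 0 of 4 MAP4K genes passed (median difference 0.02), 2 of 13 MAP3K genes passed lower (median -0.02), 1 of 5 MAP2K genes passed lower (median -0.11), 2 of 10 MAPK genes passed lower (median -0.26) and 1 of 3 MAPKAPK genes passed lower (median 0.17). Of the 3 scaffold or other genes 2 passed lower (median -0.32). Signs were mixed in the upper tiers, with 7 of 13 MAP3K genes below 0. They were mostly negative among MAP2K genes, with 4 of 5 below 0, and MAP kinases, with 8 of 10 below 0. The negative differences of MAP2K1, MAP2K4, MAP2K6, MAPK8 and MAPK14 were smaller than their standard errors, and that of MAPK8 became 0.06 without adherent animal 1. Of all genes 48.8% lay below 0, and of genes above the median level 56%. The tiers hold few genes, and differences between tiers were not tested. Non-adherent and adherent ranges did not overlap for 6 of the 38 genes, all lower and all among the 8, where 8.63% of all genes were lower and 6.35% higher without overlap.

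MAP3K11, known as MLK3, is a mixed-lineage kinase that activates the JNK branch. Its log2 value was 8.05, 7.95, 8.07, 7.97 and 7.74 in non-adherent animals 1 to 5, against 8.71, 8.22, 8.77, 8.61 and 8.70 in adherent animals 1 to 5. All non-adherent arrays lay below all adherent arrays, and adherent animal 2 came closest to them. The mean was 7.96 ± 0.13 in non-adherent and 8.60 ± 0.22 in adherent cells (SD, n = 5 each), a difference of -0.64 ± 0.12 or 1.56-fold lower (adjusted p = 0.00404). A second probe set of MAP3K11 also differed by -0.64 (adjusted p = 0.0233 over all probe sets).

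MAP3K4, known as MEKK4, is a MAP3K of the p38 and JNK branches that GADD45 proteins activate. Non-adherent animals 1 to 5 had 6.83, 6.80, 6.93, 7.12 and 7.41, against 7.02, 7.85, 7.85, 7.67 and 7.90 in adherent animals 1 to 5. The groups overlapped through adherent animal 1 alone, whose value lay among those of the non-adherent arrays. The difference was -0.64 ± 0.18 (adjusted p = 0.0347), and -0.80 ± 0.13 without adherent animal 1 (adjusted p = 0.00151). The call was lost on leaving out any other array than adherent 1 or non-adherent 5 (highest adjusted p 0.0813) and after quantile normalization (-0.56, adjusted p = 0.0542). The other probe sets of MAP3K4 differed by -0.38 (adjusted p = 0.0132 over all probe sets) and -0.53 (0.0217), in the same direction.

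MAP2K3, known as MKK3, phosphorylates p38 kinases. Its values were 5.77, 5.93, 5.82, 5.95 and 5.83 in non-adherent animals 1 to 5, against 6.23, 6.29, 6.12, 5.97 and 6.19 in adherent animals 1 to 5. The groups did not overlap, although adherent animal 4 exceeded the highest non-adherent array by a narrow margin. The difference was -0.30 ± 0.08 (adjusted p = 0.0342). Blocking on animal ended the call (adjusted p = 0.0687), as did leaving out some single arrays, namely non-adherent 1, 3 or 5 or adherent 2, 3 or 5 (highest 0.0766). The other measured MAP2K genes did not pass. MAP2K1, known as MEK1, the activator of ERK, had 8.77, 8.59, 9.04, 9.10 and 9.22 in non-adherent animals 1 to 5, against 8.36, 9.11, 9.37, 9.30 and 9.44 in adherent animals 1 to 5. Adherent animal 1 had the lowest value of all 10 arrays, and the other adherent arrays lay at or above 9.11. The MAP2K1 difference was -0.17 ± 0.20 with all arrays and -0.36 ± 0.14 without adherent animal 1 (adjusted p = 0.608 and 0.0797). It passed when animals were blocked and both arrays of animal 1 were left out (-0.32, adjusted p = 0.0459), an alternative added after the data were seen. MAP2K4 (-0.11 ± 0.14), an activator of JNK, MAP2K5 (0.05 ± 0.17), the activator of ERK5, and MAP2K6 (-0.01 ± 0.15), a p38 activator whose probe set lay below the median level of the array, differed by less than their standard errors.

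MAPK3, known as ERK1, is a MAP kinase of the growth factor branch. Non-adherent animals 1 to 5 had 8.54, 8.51, 8.63, 8.67 and 8.85, against 8.99, 8.93, 9.19, 8.93 and 9.37 in adherent animals 1 to 5. The groups did not overlap, and animal 5 was the highest in each. The mean was 8.64 ± 0.14 in non-adherent and 9.08 ± 0.19 in adherent cells (SD, n = 5 each), a difference of -0.44 ± 0.11 or 1.36-fold lower (adjusted p = 0.0197). Omitting any single array kept the call (adjusted p at most 0.0499), and it was lost without both arrays of animal 3 (0.0965). MAPK15, an atypical MAP kinase also called ERK8, had 7.25, 7.31, 7.28, 7.42 and 7.37 in non-adherent animals 1 to 5, against 7.71, 7.69, 7.47, 7.55 and 7.77 in adherent animals 1 to 5. Its groups did not overlap either, with adherent animal 3 nearest to the non-adherent range. Its difference was -0.31 ± 0.08 (adjusted p = 0.0266, against 0.0519 when animals were blocked and 0.107 after quantile normalization). Leaving out non-adherent 1, 2 or 3 or adherent 2 or 5 also ended the call of MAPK15 (highest adjusted p 0.0643).

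The p38 and JNK kinases did not pass. MAPK14, the main p38 kinase of macrophages, had 9.24, 8.96, 9.61, 9.72 and 9.52 in non-adherent animals 1 to 5, against 9.73, 9.41, 9.90, 9.60 and 9.02 in adherent animals 1 to 5. The ranges overlapped almost fully, with 3 animals lower and 2 higher in non-adherent cells, and the difference was -0.12 ± 0.19 (adjusted p = 0.696). MAPK8, known as JNK1, had 7.98, 7.71, 8.07, 8.14 and 8.25 in non-adherent animals 1 to 5, against 8.98, 7.87, 8.02, 7.80 and 8.19 in adherent animals 1 to 5. Adherent animal 1 was the highest of all 10 arrays, and the MAPK8 difference was -0.14 ± 0.21 with that array and 0.06 ± 0.12 without it. MAPK11, a p38 kinase, differed by -0.24 ± 0.09 (adjusted p = 0.0803) and was lower in 5 of 5 animals. MAPK13, another p38 kinase, ranged from 5.26 to 6.74 in non-adherent arrays, where animals 1 and 2 had 5.38 and 5.26 and the others at least 6.21, against 6.22 to 6.99 in adherent arrays. MAPK4, an atypical MAP kinase, showed the same split, with 5.78 and 5.74 in non-adherent animals 1 and 2 and 6.65 to 7.09 in animals 3 to 5, against 6.61 to 6.82 in adherent arrays. Neither passed (MAPK13 -0.41 ± 0.28, MAPK4 -0.29 ± 0.24).

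MAPK7, known as ERK5, gave opposite readings from its probe sets. The representative had 8.03, 8.11, 7.97, 8.51 and 8.16 in non-adherent animals 1 to 5, against 7.69, 7.86, 7.63, 8.15 and 7.90 in adherent animals 1 to 5. It was the higher in non-adherent cells in 5 of 5 animals, with overlapping groups and a difference of 0.31 ± 0.13 (adjusted p = 0.124, and 0.0351 when animals were blocked). The other, dimmer probe set of MAPK7 was lower without overlap, at 6.91 to 7.31 in non-adherent and 7.40 to 7.61 in adherent arrays, a difference of -0.45 (adjusted p = 0.0101 over all probe sets). The probe sets of MAPK7 therefore give no single direction. MAPK6, known as ERK3, was lower in 5 of 5 animals (-0.39 ± 0.20, adjusted p = 0.197), and its highest value, 11.22, was in adherent animal 1. MAPK10, the JNK of nervous tissue, lay below the median level and differed by 0.24 ± 0.11 (adjusted p = 0.147, and 0.0498 without adherent animal 2).

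**Figure D2:**
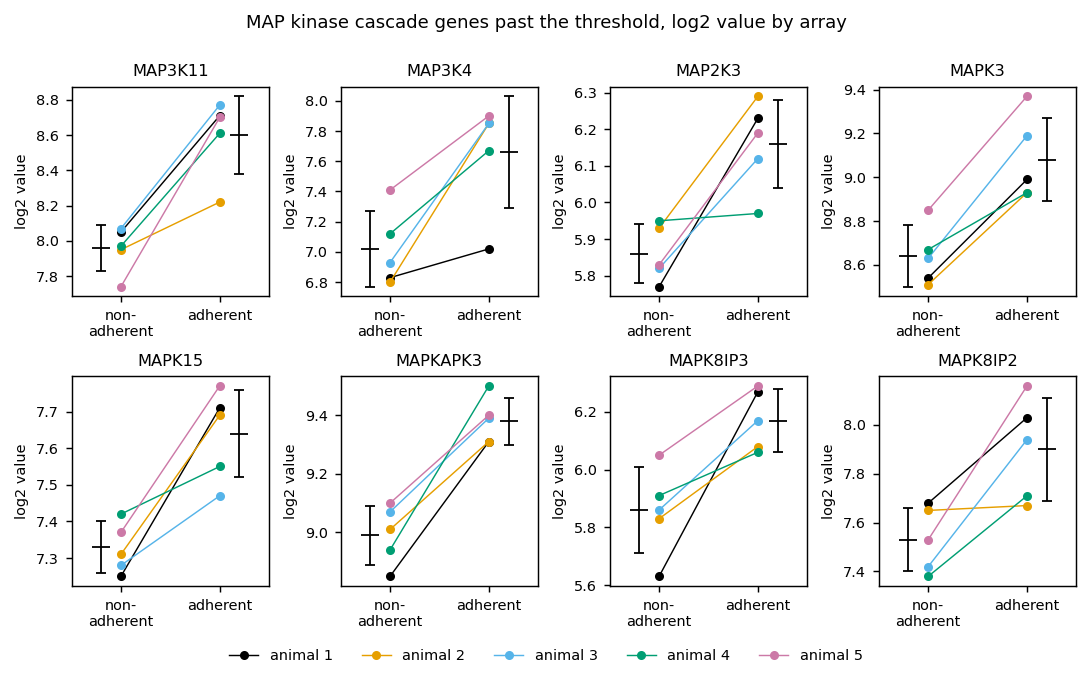
Log2 value in each array for the 8 cascade genes past the threshold, non-adherent left and adherent right, with a line joining the arrays of an animal and the mean ± SD of each group at the sides (n = 5 each). Every line runs upward to the adherent side, and the groups overlap in MAP3K4, through adherent animal 1, and in MAPK8IP2, through adherent animal 2.

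MAPKAPK3 is a kinase that p38 activates and a close relative of MAPKAPK2. Its values were 8.85, 9.01, 9.07, 8.94 and 9.10 in non-adherent animals 1 to 5, against 9.31, 9.31, 9.39, 9.50 and 9.40 in adherent animals 1 to 5. The groups were separated by a gap wider than the SD of either. The mean was 8.99 ± 0.10 in non-adherent and 9.38 ± 0.08 in adherent cells (SD, n = 5 each), a difference of -0.39 ± 0.08 or 1.31-fold lower (adjusted p = 0.00789). The second probe set of MAPKAPK3 had 8.09 to 8.36 in non-adherent and 8.88 to 9.09 in adherent arrays and differed more, by -0.76 (adjusted p = 0.000399 over all probe sets). The call held without any single array or animal (highest adjusted p 0.0483).

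MAPKAPK2, the p38 target that stabilises cytokine mRNA, did not follow MAPKAPK3. Non-adherent animals 1 to 5 had 9.66, 9.52, 9.63, 9.78 and 9.85, against 10.25, 9.23, 9.20, 9.03 and 9.50 in adherent animals 1 to 5. In animals 2 to 5 the non-adherent value was the higher, while adherent animal 1 was the highest of all 10 arrays. The MAPKAPK2 difference was 0.25 ± 0.20 with all arrays (adjusted p = 0.435) and 0.45 ± 0.11 without adherent animal 1 (adjusted p = 0.0149). It also passed with all arrays and array weights (0.44, adjusted p = 0.0315). MAPKAPK5, a substrate of p38 and of ERK3, did not pass (0.17 ± 0.13).

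The scaffolds MAPK8IP3 and MAPK8IP2, also called JIP3 and JIP2, hold the kinases of the JNK branch together. MAPK8IP3 had 5.63, 5.83, 5.86, 5.91 and 6.05 in non-adherent animals 1 to 5, against 6.27, 6.08, 6.17, 6.06 and 6.29 in adherent animals 1 to 5. MAPK8IP2 had 7.68, 7.65, 7.42, 7.38 and 7.53 in non-adherent animals 1 to 5, against 8.03, 7.67, 7.94, 7.71 and 8.16 in adherent animals 1 to 5. The groups of MAPK8IP3 did not overlap but nearly met, at non-adherent animal 5 and adherent animal 4, and those of MAPK8IP2 overlapped at non-adherent animal 1 and adherent animal 2. MAPK8IP3 differed by -0.32 ± 0.10 (adjusted p = 0.0431) and MAPK8IP2 by -0.37 ± 0.11 (adjusted p = 0.046). These were the least stable calls. They were lost when animals were blocked (adjusted p = 0.0653 and 0.0523) and after quantile normalization (0.0682 and 0.158). Leaving out any array but non-adherent 5 ended that of MAPK8IP3 (highest adjusted p 0.0974), and leaving out any array but adherent 2 or 4 ended that of MAPK8IP2 (highest 0.101). The mean of its probe sets gave MAPK8IP2 a difference of -0.19 (adjusted p = 0.249). MAPK1IP1L was lower in 5 of 5 animals by a small amount (-0.16 ± 0.07, adjusted p = 0.171).

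At the top of the cascade, 0 of the 4 MAP4K genes passed in the fit without animal blocks or array weights. MAP4K3, known as GLK, had 8.21, 8.22, 8.54, 8.81 and 8.46 in non-adherent animals 1 to 5, against 7.17, 7.66, 8.07, 8.60 and 7.90 in adherent animals 1 to 5. It was higher in non-adherent cells in 5 of 5 animals, and animal 4 was the highest in each group. The difference was 0.57 ± 0.23 (adjusted p = 0.116), which passed when animals were blocked (0.57 ± 0.12, adjusted p = 0.0194) and without adherent animal 4 (0.75, adjusted p = 0.0293). Its other probe sets, both dim, differed by -0.10 and 0.07, and the mean of the 3 differed by 0.18 (adjusted p = 0.507). MAP4K4 (-0.32 ± 0.16), which acts on JNK and the cytoskeleton, and MAP4K1 (0.11 ± 0.16), a kinase of blood cells, passed without adherent animal 1, at -0.46 (adjusted p = 0.0179) and 0.28 (adjusted p = 0.0475). With all arrays and array weights MAP4K4 also passed (-0.46, adjusted p = 0.0263) and MAP4K1 did not (0.24, adjusted p = 0.131). MAP4K5 did not pass (-0.08 ± 0.13).

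The MAP3K genes of the NF-kB and Toll-like receptor pathways did not pass in the fit without animal blocks or array weights. MAP3K7, known as TAK1, the kinase that links Toll-like receptor adaptors to p38, JNK and NF-kB, had 8.82, 8.49, 8.49, 8.65 and 8.60 in non-adherent animals 1 to 5, against 8.64, 8.93, 8.75, 8.69 and 8.74 in adherent animals 1 to 5. Its groups overlapped, with a difference of -0.14 ± 0.09 (adjusted p = 0.322). MAP3K5, the stress kinase ASK1, had 8.62, 8.32, 8.91, 9.22 and 8.96 in non-adherent animals 1 to 5, against 8.86, 8.50, 8.69, 8.62 and 8.97 in adherent animals 1 to 5. The difference was 0.08 ± 0.16 (adjusted p = 0.787), and the non-adherent range enclosed the adherent one.

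MAP3K8, known as TPL2, activates ERK after lipopolysaccharide. Non-adherent animals 1 to 5 had 10.20, 9.66, 9.85, 9.88 and 10.00, against 10.18, 9.20, 9.31, 9.51 and 9.68 in adherent animals 1 to 5. Each animal was higher in its non-adherent array, by 0.02 in animal 1. The MAP3K8 difference was 0.34 ± 0.18 (adjusted p = 0.211), and 0.50 ± 0.13 without adherent animal 1 (adjusted p = 0.0202). It also passed with all arrays and array weights (0.48, adjusted p = 0.0198), but the mean of its probe sets differed by -0.02 (adjusted p = 0.94). MAP3K14, known as NIK, the kinase of the non-canonical NF-kB pathway, had 6.22, 6.12, 6.28, 6.21 and 6.20 in non-adherent animals 1 to 5, against 8.54, 6.26, 6.22, 6.39 and 6.55 in adherent animals 1 to 5. All arrays other than adherent animal 1 lay between 6.12 and 6.55. The difference of -0.59 ± 0.38 (adjusted p = 0.321) became -0.15 ± 0.09 without that array (adjusted p = 0.252).

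**Figure D3:**
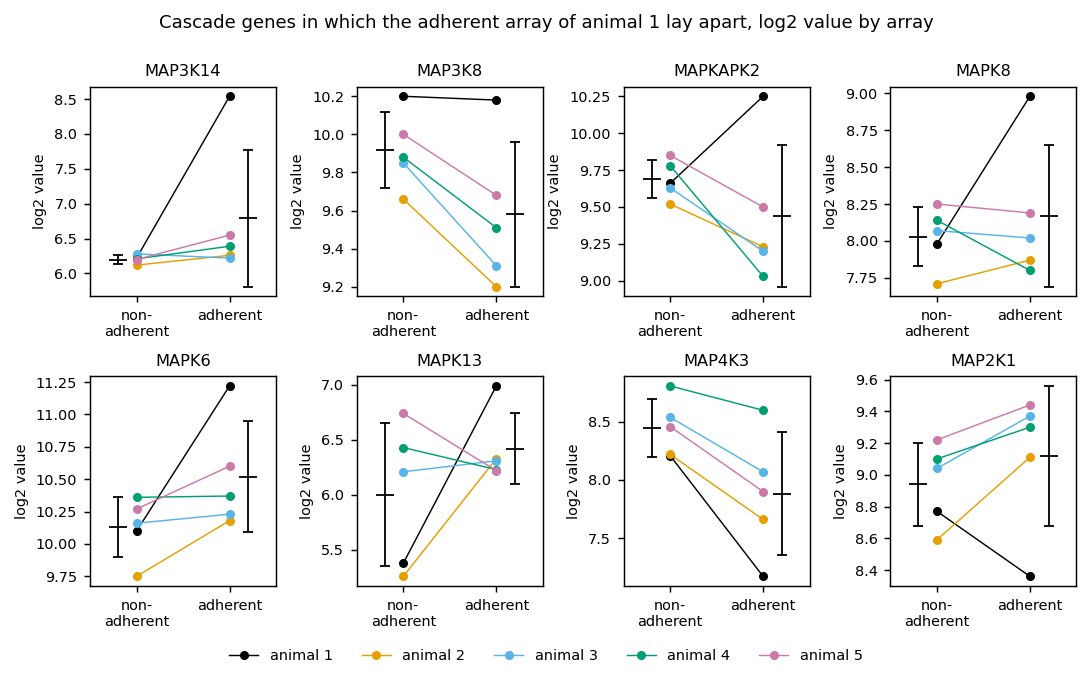
Log2 value by array for 8 cascade genes, chosen after their values were seen, in which adherent animal 1 (black) was the highest or lowest adherent array, with non-adherent left, adherent right and mean ± SD at the sides (n = 5 each). In MAP4K3 the other adherent arrays were themselves spread from 7.66 to 8.60. In MAP3K14 it had 8.54 where the other 9 arrays lay between 6.12 and 6.55, and in MAP2K1 and MAP4K3 it was the lowest of 10.

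Adherent animal 1 held the highest of 10 values for 9 of the 38 cascade genes (23.7%) and the lowest for 6 (15.8%), against 19.2% and 19.4% of all genes. Its excess over the mean of the other adherent arrays was 2.18 in MAP3K14, 1.01 in MAPKAPK2, 1.01 in MAPK8, 0.88 in MAPK6 and 0.83 in MAP4K1, and its deficit was largest in MAP2K1 (-0.94). Without this array 7 cascade genes passed lower and 3 higher, where 13.0% and 9.34% of all genes did. Of these 7, 6 were among the 8 called with all arrays and MAP4K4 was added, while MAPK8IP2 (adjusted p = 0.0626) and MAPK8IP3 (0.0582) were lost. The 3 higher were MAP4K1, MAP3K8 and MAPKAPK2. DUSP1, the phosphatase that inactivates p38 and JNK, was also extreme in this array, at 12.50, against 9.97 to 10.84 in the other adherent arrays. Non-adherent animals 1 and 2 held the lowest of 10 values for 7 and 12 of the 38 genes (18.4% and 31.6%), against 9.47% and 12.1% of all genes.

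The remaining MAP3K genes did not pass in their representative probe set. MAP3K3 was lower in 5 of 5 animals (-0.28 ± 0.11, adjusted p = 0.11), and MAP3K9 (0.26 ± 0.21), MAP3K6 (-0.12 ± 0.13), MAP3K12 (0.08 ± 0.10) and MAP3K1 (-0.02 ± 0.23) had mixed signs. MAP3K2, an activator of ERK5, and MAP3K13, an activator of JNK, depended on the probe set. For MAP3K2 the representative differed by 0.12 and the others by 0.41, -0.37 and 0.79. The last of these passed over all probe sets (adjusted p = 0.0102), with 7.18, 7.33, 7.63, 7.36 and 7.50 in non-adherent animals 1 to 5, against 6.94, 6.66, 6.37, 6.92 and 6.14 in adherent animals 1 to 5. For MAP3K13 the representative differed by 0.11 and another by 0.82 (adjusted p = 0.0123 over all probe sets), at 5.00 to 5.78 in non-adherent and 4.14 to 4.78 in adherent arrays, and the mean of its 3 probe sets differed by 0.36 (adjusted p = 0.0304).

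Over all 81 probe sets of the 38 genes, 2 were called higher and 13 lower in the fit over all 47845 probe sets. Of all these probe sets 10.8% were called in either direction. That share includes the 21419 probe sets without a gene symbol and joins both directions, so it is not a like reference for these counts. Whether the 2 and 13 differ from the shares of named probe sets in each direction was not tested. Of the 24 genes with more than 1 probe set, 3 had a further probe set called in the same direction as the representative (MAP3K11, MAP3K4 and MAPKAPK3). In 5 genes only a further probe set was called: higher in MAP3K2 and MAP3K13, and lower in MAP3K5 (-0.39), MAP3K8 (-0.31, at a level of 2.77 to 3.28) and MAPK7. In this wider fit MAPK8IP2 (adjusted p = 0.056) and MAPK8IP3 (0.0503) did not pass.

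**Figure D4:**
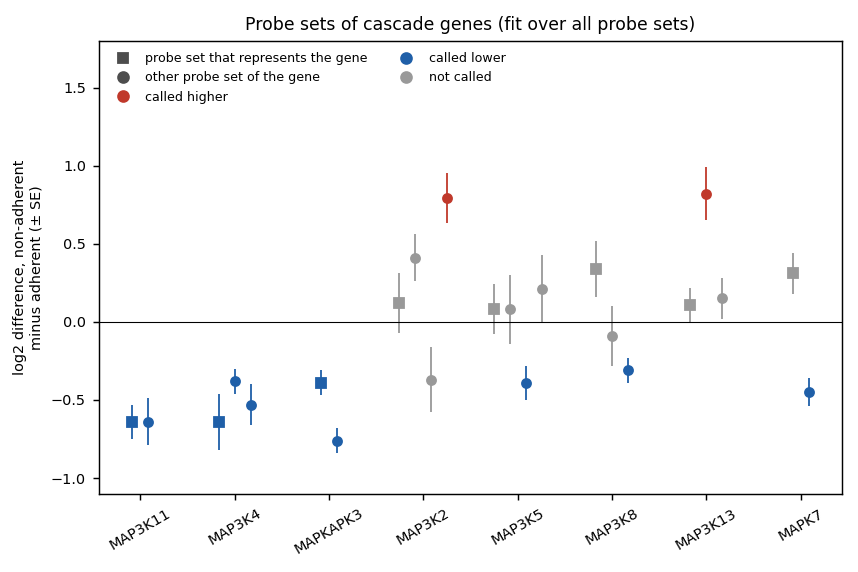
Log2 difference, non-adherent minus adherent, with its standard error, for each probe set of 8 cascade genes in the fit over all probe sets (squares represent the gene, circles are its other probe sets). The probe sets of MAP3K11, MAP3K4 and MAPKAPK3 are all below 0, whereas those of MAP3K2 run from -0.37 to 0.79 and those of MAPK7 are 0.31 and -0.45.

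Genes that surround the cascade moved in both directions. Of 109 listed, 93 were measured, with a median difference of -0.07. In non-adherent cells 13 were higher and 13 lower, or 14% each, against 6.72% and 9.78% of all genes. Among genes above the median level of all probe sets 7.79% were higher and 13.3% lower, so the share lower was near that reference. The same shares are the reference for each list below, and differences between lists were not tested. Among 15 measured genes of RAS and RAF input, 3 rose and 2 fell (median difference 0.14). BRAF, a RAF kinase that activates MAP2K1, had 9.26, 9.31, 9.52, 9.45 and 9.56 in non-adherent animals 1 to 5, against 9.14, 8.85, 8.82, 8.77 and 9.0 in adherent animals 1 to 5, a rise of 0.50 ± 0.10 without overlap. SOS1, an exchange factor for RAS, rose by 0.47 ± 0.10 and RASGRP4, another, by 0.31 ± 0.09, while the adaptors SHC1 (-0.53 ± 0.14) and GRB2 (-0.35 ± 0.09), which recruit SOS to receptors, fell. The calls of RASGRP4, SHC1 and GRB2 were lost on leaving out single arrays (highest adjusted p 0.0711, 0.0578 and 0.0635).

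Of 18 adaptors and scaffolds, 3 rose and 4 fell (median -0.25). ARRB2, beta-arrestin 2, a scaffold for ERK and JNK, had 11.70, 11.90, 11.97, 11.93 and 11.81 in non-adherent animals 1 to 5, against 11.28, 10.65, 10.68, 10.92 and 10.50 in adherent animals 1 to 5. It rose by 1.06 ± 0.14, while its relative ARRB1 fell by 0.63 ± 0.11, each without overlap of the groups. TRAF3 (-0.95 ± 0.17), which restrains MAP3K14, and TRAF2 (-0.46 ± 0.10), which links tumour necrosis factor receptors to JNK, fell, as did IRAK1 (-0.40 ± 0.10). IRAK4 (0.55 ± 0.15) and TAB2 (0.31 ± 0.09), partners of Toll-like receptor signalling, rose, and both calls were lost on leaving out single arrays (highest adjusted p 0.0656 and 0.0885).

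Of 13 related kinases, 2 rose and 3 fell (median 0.16). PAK2, a kinase activated by RAC and CDC42, rose by 0.95 ± 0.10, at 11.86 to 12.05 in non-adherent and 10.76 to 11.28 in adherent arrays, whereas PAK1 fell by 0.50 ± 0.11. TAOK1, a STE20 kinase that activates p38, rose by 0.67 ± 0.15. STK25 (-0.44 ± 0.09) and STK24 (-0.41 ± 0.11) fell, and the call of STK24 was lost on leaving out single arrays (highest adjusted p 0.0689). Of 6 kinases downstream of ERK and p38, 1 fell (median -0.09): RPS6KA5, known as MSK1, had 6.94, 6.80, 6.93, 6.43 and 6.68 in non-adherent animals 1 to 5, against 8.16, 7.27, 7.40, 7.90 and 7.38 in adherent animals 1 to 5, a fall of 0.87 ± 0.18.

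Of 19 transcription factors that MAP kinases phosphorylate, 3 rose and 1 fell (median -0.05). ELK3, an ETS factor that ERK phosphorylates, rose by 1.34 ± 0.22, at 8.31 to 8.83 in non-adherent and 6.76 to 8.03 in adherent arrays. ATF2, a target of p38 and JNK, rose by 0.69 ± 0.12 and its relative ATF7 by 0.70 ± 0.13. JUND fell by 0.41 ± 0.12, a call lost on leaving out single arrays (highest adjusted p 0.0908). Of 22 phosphatases and other inhibitors, 2 rose and 2 fell (median -0.06). SPRED2, an inhibitor of RAF activation, rose by 1.45 ± 0.41, and by 1.01 without adherent animal 1, where it was lowest at 5.87. PPM1B, a phosphatase of TAK1, rose by 0.49 ± 0.10. TNIP1, an inhibitor of NF-kB and of ERK signalling, fell by 1.05 ± 0.20 and DUSP1 by 1.55 ± 0.40. The calls of SPRED2 (highest adjusted p 0.0762) and DUSP1 (0.0548) were lost on leaving out single arrays. The calls of SOS1, TRAF2 and TAOK1 were lost without both arrays of animal 3 (adjusted p at most 0.0729), that of TAOK1 also without animal 5, and taking the mean of all probe sets of a gene ended those of BRAF, GRB2, TAB2, TAOK1, ATF7, SPRED2 and DUSP1. When animals were blocked, the lists had 13 genes higher and 17 lower. No call was lost, and the 4 added were RASGRP3 (-1.12 ± 0.49, blocked adjusted p = 0.00255), a RAS exchange factor, the transcription factors JUNB (-0.86 ± 0.27, 0.0325) and ETS2 (-0.64 ± 0.25, 0.0324), and the phosphatase DUSP4 (-0.71 ± 0.26, 0.0457), with the SE of the unblocked fit. This raised the transcription factors called lower to 3, and 5 were lower without adherent animal 1. Without adherent animal 1 the counts over all 93 genes were 14 higher and 22 lower.

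**Figure D5:**
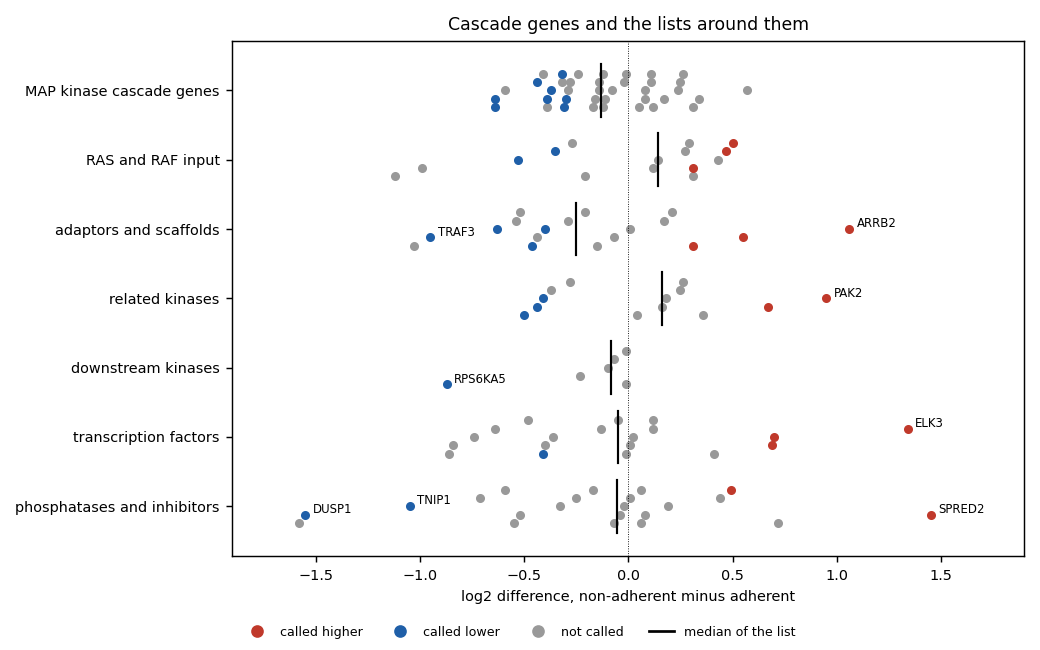
Log2 difference, non-adherent minus adherent, of the 38 cascade genes (top row) and of 93 genes in 6 lists around them, 1 point per gene with the median of each row as a bar. The cascade genes lie between -0.64 and 0.57, whereas ELK3 (1.34), SPRED2 (1.45), ARRB2 (1.06), DUSP1 (-1.55) and TNIP1 (-1.05) lie outside that range.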

How the data were processed

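The deposited table holds log2 probe set values from 10 Affymetrix Snowball pig arrays. Per the submitters' processing notes RMA and Partek were used. Versions, the order of steps and whether the groups were normalized jointly are not given in the sources used here. Of 47845 probe sets 26426 had 1 gene symbol, 0 several and 21419 none in the platform annotation. Symbols are printed as it gives them, all 38 cascade symbols matched the RefSeq names of Sscrofa11.1, and no coordinates or sequences are given. For each of 13755 genes the brightest probe set on average was used. Differences were fitted with limma 3.58.1 (lmFit, eBayes, R 4.3.3) over all genes with Benjamini-Hochberg adjustment, 2-sided, and the fit was tested on simulated data. Arrays carry no read depth, so their number, 5 per group, limits the precision.

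The animal number pairs the arrays, since the titles and the series design give the same individuals, and residuals of same-numbered arrays correlated at 0.116 to 0.398 across genes. Alternatives used the animal as a block, left out each animal or array, rescaled or filtered the values, changed the variance model or the probe set rule, or used limma's treat at a fold of 1.5. The members and lists were chosen with earlier results of these data known. Values in every array are given for cascade genes past the threshold and for a fixed set of central kinases. They are also given for MAPK7, MAP4K3 and a further probe set of MAP3K2, which were chosen after their values were seen. In each surrounding list the called genes of lowest p, at most 3 higher and 3 lower, were named with their differences. Other genes, such as IRAK1 and those added by the block, and the genes of the lists given by array, were chosen after their values were seen. Figures used matplotlib 3.10.9.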

Additional observations from a re-analysis of the deposited data

Results flagged for a closer look

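A group of 5 arrays was marked where its highest or lowest value was separated from the next by more than 0.71 of the group's range (Dixon's critical value). This was so in 8 of 126 groups of named genes, and chance gives about 1 in 20. Of the 76 groups of the cascade genes 4 were marked, each through adherent animal 1. MAP3K14 had 8.54 there, with the next adherent array at 6.55. MAPK13 had 6.99, with the next at 6.33. MAP3K4 had 7.02, the lowest, with the next at 7.67, and MAPKAPK5 had 8.68, with the next at 9.17. Among the 25 surrounding genes screened, adherent animal 1 was the lowest in TAB2 (10.45, next 10.71), ATF2 (9.01, next 9.41) and SPRED2 (5.87, next 7.82). PAK1 was highest in non-adherent animal 5 (6.89, next 6.59). The other surrounding genes were not screened. In some of these, picked after their values were seen, adherent animal 1 was far above the next adherent array. It had 11.57 in FOS (next 6.91), 11.53 in DUSP2 (next 8.41) and 10.72 in JUN (next 8.72). In NF1 it was far below, at 8.95 (next 10.22).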

How the results depend on the processing

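All 8 cascade genes called lower stayed below 0 under all 24 alternatives. This says little, because all 8 were lower in 5 of 5 animals, so leaving out an animal could not change a sign. The block, treat and the level filter also leave the difference itself unchanged. MAP3K11 and MAPKAPK3 passed in 23 of 24, all but treat, and MAPK3 in 22, whereas MAPK8IP3 passed in 5 and MAPK8IP2 in 7. The count of cascade genes lower, 8 in the reported fit, was 4 with the replicate block (animal), 4 after quantile normalization, 0 with treat at a fold of 1.5, and 2 to 7 on leaving out an animal or array. The count higher, 0 in the reported fit, was 2 with the block, 2 weighting the arrays, 1 averaging probe sets (MAP3K13), 4 with the block without animal 1 (added after the data were seen), and 0 to 3 on leaving out an animal or array. Among the alternatives, shares over all genes are given here only for the block and for leaving out adherent animal 1. Whether the other changes in count are particular to the cascade was not tested. The largest cascade difference is 1.56-fold, little above the fold of 1.5 used by treat, so a count of 0 there says little. At an unadjusted p under 0.05, 3 cascade genes were higher (7.89%, against 14.6% of all genes) and 10 lower (26.3%, against 16.9%). For the surrounding lists, 13 higher became 7 to 15 and 13 lower became 6 to 22 on leaving out arrays or animals, 0 and 0 with treat, and lower 17 with the block and 24 with the block without animal 1. The block without animal 1 gave 7 cascade genes lower, MAP2K1 among them. Centring and quantile normalization moved the median of all genes to -0.018 and -0.002, against 0.008 as deposited.

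Uncalled genes near 0 changed sign. Leaving out arrays or animals gave MAP2K5 -0.06 to 0.19, MAP2K6 -0.14 to 0.10, MAP3K1 -0.18 to 0.17, MAP3K2 -0.02 to 0.32, MAP3K5 -0.05 to 0.20, MAP3K6 -0.20 to 0.02, MAP4K5 -0.19 to 0.02 and MAPK8 -0.26 to 0.07. Array weights gave MAP2K6 0.02, MAP3K1 0.01 and MAPK8 0.07, and quantile normalization gave MAP3K1 0. The mean of probe sets gave MAP3K5 0, MAP3K8 -0.02 and MAPK7 -0.07. The block without animal 1 gave MAP2K6 0.09, MAP3K6 0.02 and MAPK8 0.07. The cause of these changes was not tested.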
